A study of Mus musculus with 22 samples.

Results

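The genes described here are the 8 that encode the core enzymes of DNA methylation and demethylation and their targeting partners: Dnmt1, Uhrf1, Dnmt3a, Dnmt3b, Dnmt3l, Tet1, Tet2 and Tet3. They were taken by symbol from the gene list of the count matrices, and all 8 were found among its 32285 genes. Their RNA was followed across the days and cell types of mouse gastruloids, which are aggregates of embryonic stem cells that in culture give rise to many tissues of the early embryo. All samples share one origin: wild-type (WT) E14Tg2A (E14) embryonic stem cells kept in serum with LIF (ESLIF), seeded at 300 cells per well, aggregated for 48 h and then given 3 µM CHIR99021, a GSK3 inhibitor that switches on Wnt signalling. There is therefore no genotype or treatment contrast, and every group is one cell line at one age from 3 to 5 days after aggregation.

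Cells were captured on a droplet platform that counts the 3′ ends of transcripts as unique molecular identifiers (UMIs). In 3 experiments, called MULTI-seq 1, 2 and 3, the cells of each gastruloid were first tagged with a barcode on a lipid anchor, and a gastruloid is the replicate. MULTI-seq 3 held 24 gastruloids of day 3 in one set of lanes, 16 each of days 3.5 and 4 in another, and 16 each of days 4.5 and 5 in the last. The sample descriptions number these 3 lane sets as separate experiments. MULTI-seq 2 gave 11 gastruloids of day 4 and 12 of day 4.5 from the lanes labelled pool B, and its day 3 and 3.5 gastruloids were not analysed here. MULTI-seq 1 gave 24 gastruloids of day 5. Of 77674 cells on 18 lanes, 53730 carried the barcode of a single gastruloid. The lanes held 30065021 to 238431052 UMIs, with lane medians of 8287 to 38443 UMIs per cell and 1.94% to 5.48% mitochondrial UMIs. Pairs of lanes shared between 0 and 15 cell barcodes. Cell types are the authors' cluster names. Most marker lists were highest in the type that carries their name. The lists for the caudal epiblast, the primitive streak, the nascent mesoderm and the head mesoderm were highest in Notochord, Notochord, Anterior Primitive Streak and Early Anterior PSM (presomitic mesoderm) cells. The labels do not state that gastruloids of a day came from separate cultures, so p-values measure the spread between gastruloids grown together.

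In mammals, methyl groups on cytosine are copied to the new DNA strand by Dnmt1, which Uhrf1 brings to hemimethylated sites during replication. Dnmt3a and Dnmt3b add methyl groups to unmethylated DNA, and Dnmt3l is a relative without catalytic activity that stimulates both. The Tet enzymes oxidise methylcytosine, which leads to its loss through dilution or base excision repair. In the mouse embryo the epiblast gains methylation as it leaves naive pluripotency, while the primordial germ cells that arise from it are known for losing methylation genome-wide.

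The promoters of 2 pairs of members are shown first, one pair whose RNA was related to the same S phase genes in several groups of gastruloids and one pair that differed in how widely its RNA was found. The 300-base windows run from 250 bases before to 50 bases after a RefSeq transcript start (GRCm38.p6) and are written 5′ to 3′ on the gene's strand. In the first pair, Dnmt1 (chr9:20952574-20952873, minus strand) and Uhrf1 (chr17:56304063-56304362, plus strand), the RNA level was related to that of S phase genes in 4 of 8 groups of gastruloids each. Capitals mark 8-base matches to an E2F-type motif, searched as TTTCGCGC, TTTCCCGC, TTTGGCGC and TTTGCCGC on both strands, where no match overlapped another.
Dnmt1: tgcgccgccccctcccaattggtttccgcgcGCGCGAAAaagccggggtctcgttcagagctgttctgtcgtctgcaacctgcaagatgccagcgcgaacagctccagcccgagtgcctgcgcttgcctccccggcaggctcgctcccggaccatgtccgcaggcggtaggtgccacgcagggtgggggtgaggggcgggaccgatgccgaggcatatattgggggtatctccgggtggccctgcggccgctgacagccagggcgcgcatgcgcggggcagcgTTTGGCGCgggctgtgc
Uhrf1: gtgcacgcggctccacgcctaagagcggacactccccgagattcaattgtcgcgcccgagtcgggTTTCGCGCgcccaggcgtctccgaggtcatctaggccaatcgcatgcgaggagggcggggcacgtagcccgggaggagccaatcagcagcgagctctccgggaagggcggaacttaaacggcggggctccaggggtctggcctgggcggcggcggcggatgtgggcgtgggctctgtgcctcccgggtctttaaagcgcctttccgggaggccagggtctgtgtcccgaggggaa
The Dnmt1 window holds 2 matches, which begin 219 bases before its start (20952623) and 33 bases after it. The Uhrf1 window holds 1, which begins 185 bases before its start (56304313). These are the most downstream of each gene's starts in the table. The Dnmt1 window lies downstream of the Dnmt1 starts at 20959888 and 20952979, and the Uhrf1 window downstream of the Uhrf1 start at 56303337. Of 32817 such windows in the table, 742 (2.26%) hold at least 1 match. Each of these motifs holds a CpG dinucleotide. The Dnmt1 and Uhrf1 windows hold 33 CpGs each, beside a median of 7 over all windows. The share with a match among windows as rich in CpGs was not computed. The other windows of Dnmt1 and Uhrf1 and those of the other 6 genes hold none. In the next pair, Dnmt3b (chr2:153649199-153649498, plus strand) was found in every cell type and Dnmt3l (chr10:78055085-78055384, plus strand) mainly in the cluster the authors named PGCs (primordial germ cells). Capitals here mark CpG dinucleotides, the sites these enzymes act on.
Dnmt3b: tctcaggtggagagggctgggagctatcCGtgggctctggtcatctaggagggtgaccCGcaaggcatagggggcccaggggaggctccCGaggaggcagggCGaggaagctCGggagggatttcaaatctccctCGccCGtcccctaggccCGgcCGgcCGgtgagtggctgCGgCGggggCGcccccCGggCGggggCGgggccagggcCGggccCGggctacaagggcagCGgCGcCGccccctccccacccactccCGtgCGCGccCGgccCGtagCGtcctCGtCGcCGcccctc
Dnmt3l: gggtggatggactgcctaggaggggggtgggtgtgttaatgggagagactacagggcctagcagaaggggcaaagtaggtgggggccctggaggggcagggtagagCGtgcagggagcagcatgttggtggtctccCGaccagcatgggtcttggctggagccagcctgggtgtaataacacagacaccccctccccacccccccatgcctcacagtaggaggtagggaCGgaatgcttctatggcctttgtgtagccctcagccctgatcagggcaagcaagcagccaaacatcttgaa
The Dnmt3b window holds 30 CpGs and this Dnmt3l window, at which 3 annotated transcripts start, holds 3, beside a median of 7 over all windows. The other 2 Dnmt3l windows hold 6 and 4. The Tet2 window holds 57 CpGs, and 0.152% of windows hold as many or more. These counts describe sequence only: no methylation was measured.

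In the annotation used here (GENCODE vM21, GRCm38, the assembly that mm10 also names) the genes lie at chr9:20907209-20959888 (Dnmt1), chr17:56303321-56323486 (Uhrf1), chr12:3806007-3914443 (Dnmt3a), chr2:153649450-153687730 (Dnmt3b), chr10:78041947-78063622 (Dnmt3l), chr10:62804570-62908996 (Tet1), chr3:133463679-133545139 (Tet2) and chr6:83362373-83459084 (Tet3). All are protein-coding. Because UMIs count 3′ ends, isoforms that share a 3′ end, such as the oocyte and somatic forms of Dnmt1, are not told apart, and levels are not compared between genes. No source used here gives the strand setting of the authors' counting. Reads of an overlapping gene on the other strand, such as Aire for Dnmt3l, cannot be told apart from the member's own.

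Dnmt3b fell in all 5 comparisons of consecutive days, and it was the one member to do so. A level here is in counts scaled to a sum of 1000000 UMIs per gastruloid (CPM, mean ± SD over gastruloids), and a fold change is on the log2 scale after TMM normalisation, with its standard error. In MULTI-seq 3 the level was 180 ± 23 on day 3 (lowest 142, median 183, highest 224, n = 24). It was 130 ± 26 on day 3.5 (100.2, 126, 178, n = 16) and 97.2 ± 11.7 on day 4 (77.9, 97.7, 126, n = 16). It was 47.9 ± 5.4 on day 4.5 (36.9, 49.5, 54.8, n = 16) and 37.1 ± 8.9 on day 5 (30.3, 35.3, 68.0, n = 16). The lowest gastruloid of day 4 thus lay above the highest of day 4.5, while neighbouring days on either side of that step overlapped. One gastruloid of day 5, at 68.0, lay above all 16 of day 4.5.

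**Figure D1:**
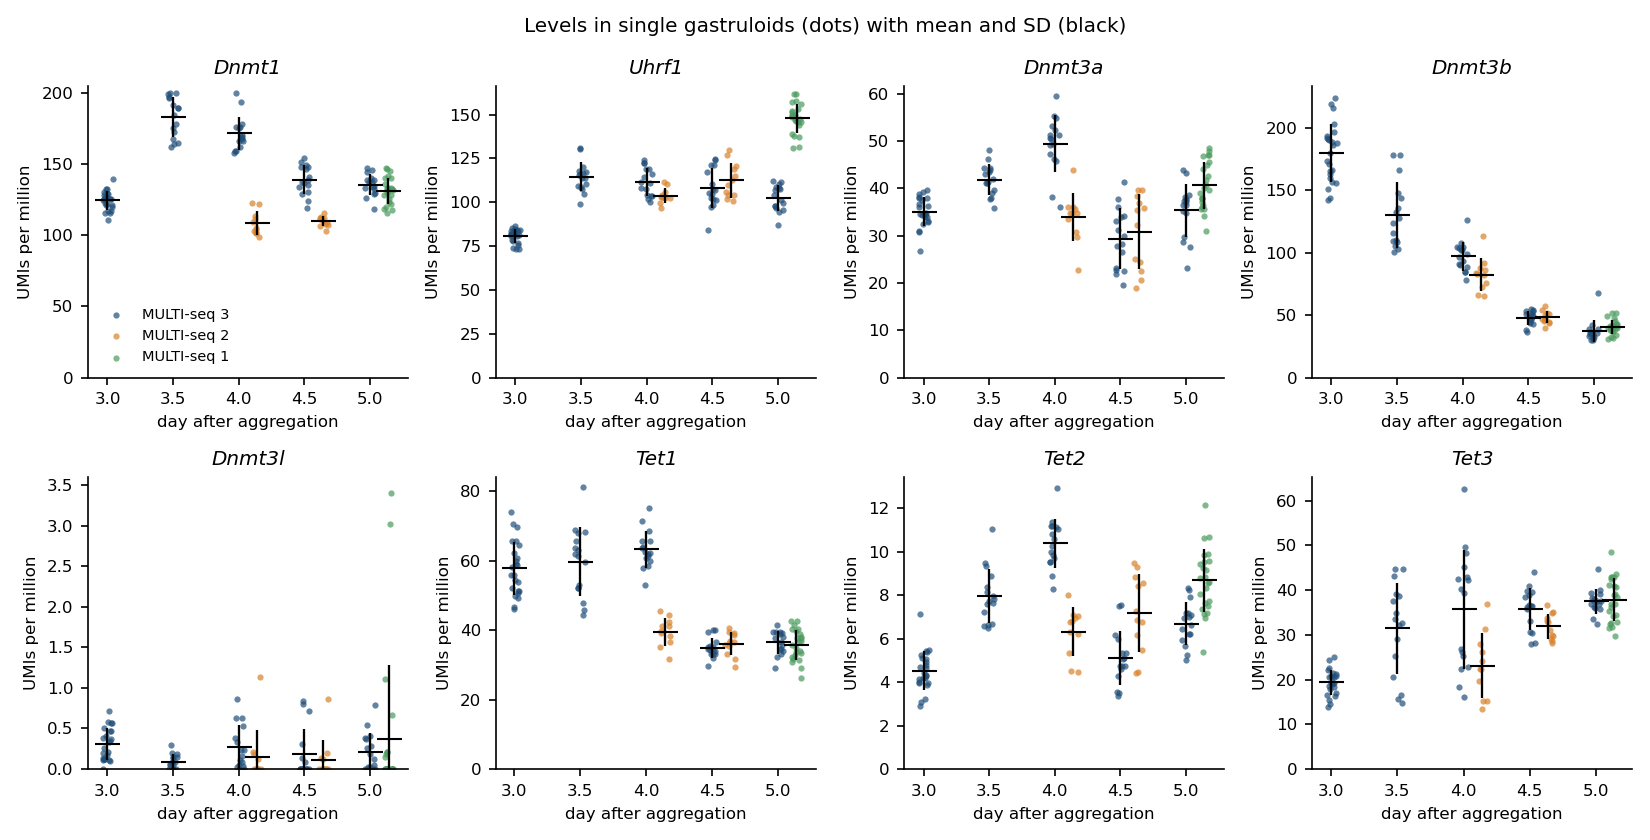
Level of each member in single gastruloids (dots; CPM, linear axes that differ between panels) by day after aggregation, with the mean and SD of each group, for MULTI-seq 1, 2 and 3. Dnmt3b goes from 180 to 37.1 CPM in MULTI-seq 3, whereas Dnmt1 is highest there on day 3.5 and Dnmt3l stays near 0.

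Only gastruloids of one lane set can be compared between days without a change of lanes. In MULTI-seq 3 this holds for days 3.5 and 4, where 8006 of 13262 genes tested passed an adjusted p of 0.05 (edgeR's quasi-likelihood test, Benjamini-Hochberg over all genes), which is 60.4% of genes. Of the members, 4 of the 7 tested passed, so a call by itself says little here. Dnmt3b fell by 0.44 ± 0.08 (adjusted p = 1.08e-05), and 15 of 16 gastruloids of day 4 lay below the day 3.5 median. Between days 4.5 and 5 the background was smaller: 1655 of 12298 genes passed, or 13.5%, and 2 of 7 members. Dnmt3b fell by 0.38 ± 0.08 (adjusted p = 0.00141), again with 15 of 16 gastruloids below the earlier median. In MULTI-seq 2, where 814 of 11064 genes (7.36%) and 2 of 7 members passed between days 4 and 4.5, Dnmt3b fell by 0.79 ± 0.07 (adjusted p = 8.95e-07). Its level there went from 82.3 ± 13.4 (64.9, 83.0, 113, n = 11) to 48.1 ± 4.8 (40.0, 47.2, 57.0, n = 12), and the groups did not overlap. Scaling by library size alone moved the share of higher calls among all genes from 47.2% to 58.3% at days 4.5 to 5 and from 41.2% to 57.3% in MULTI-seq 2, and the Dnmt3b calls were made under both scalings.

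The other 2 steps of MULTI-seq 3 join different lane sets, so that day and lane set cannot be told apart. Dnmt3b fell by 0.64 ± 0.07 from day 3 to 3.5 (adjusted p = 1.42e-11, where 74.8% of genes passed) and by 0.82 ± 0.06 from day 4 to 4.5 (adjusted p = 8.78e-14, where 66.1% passed). The log2 fold change from day 4 to 4.5 in MULTI-seq 3 minus that in MULTI-seq 2 was -0.05 ± 0.10 (adjusted p = 0.774, against 33.9% of genes that passed). It was -0.26 with library size alone (adjusted p = 0.0255). A negative value here means a larger fall in MULTI-seq 3. At the same day, Dnmt3b in MULTI-seq 3 minus the other experiment was 0.09 on day 4, 0.03 on day 4.5 and 0.11 on day 5, with adjusted p of 0.369, 0.693 and 0.204 and with 46.1%, 42.5% and 63.7% of genes passing. With library size alone these were 0.25 (adjusted p = 0.00661), -0.01 and -0.12, so the sign changed on days 4.5 and 5 and not on day 4. Between lane sets and experiments that scaling moved the median of all genes by 0.16 from day 3 to 3.5, -0.20 from day 4 to 4.5, 0.16 on day 4, -0.22 on day 5 and -0.21 in the difference between experiments. In the lanes without gastruloid barcodes, the pooled level was 192 on day 3 and 108 on day 4 in the experiment without MULTI-seq. The summed level of pluripotency genes had a mean of 936 CPM on day 3, 320 on day 3.5, 114 on day 4, 25.3 on day 4.5 and 41.9 on day 5. It was lower at each step up to day 4.5. At the last step, in which Dnmt3b fell, the mean of this sum was higher. Of the 16 gastruloids of day 5, 9 lay above the day 4.5 median and 7 below, and the ranges overlapped. The part of the pluripotency genes in the Dnmt3b change was not tested.

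Dnmt3a, the second active de novo enzyme, went the other way from day 3.5 to 4. Its level was 41.8 ± 3.3 on day 3.5 (35.8, 41.6, 48.1) and 49.5 ± 6.0 on day 4 (36.1, 50.5, 59.6). It rose by 0.22 ± 0.06 (adjusted p = 0.00124), with 14 of 16 gastruloids above the earlier median and overlapping ranges. From day 4.5 (29.4 ± 6.4; 19.6, 29.1, 41.4) to day 5 (35.4 ± 5.6; 23.2, 36.8, 44.0) the log2 difference was 0.25 ± 0.09 and did not pass (adjusted p = 0.0722). Between the lane sets, from day 4 to 4.5, it fell by 0.55 ± 0.09 (adjusted p = 1.20e-06), while MULTI-seq 2 gave 33.9 ± 5.1 and 30.8 ± 7.9 at these days. The difference between the 2 experiments in this step was -0.41 ± 0.15 (adjusted p = 0.0258; -0.63 with library size alone), and it did not pass with at least 100 cells per gastruloid (adjusted p = 0.101). On day 4 itself Dnmt3a was 0.37 higher on the log2 scale in MULTI-seq 3 than in MULTI-seq 2 (adjusted p = 0.000224).

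Dnmt3l, the non-catalytic partner, was close to absent at the level of a whole gastruloid and did not reach the count needed for a test. The 16 gastruloids of day 4 in MULTI-seq 3 held 137 Dnmt3l UMIs in all, with 0 to 22 in any one. Over the days 3, 3.5, 4, 4.5 and 5 the mean level was 0.308, 0.0912, 0.270, 0.180 and 0.216 CPM. On day 5, 16 of the 24 gastruloids of MULTI-seq 1 and 4 of the 16 of MULTI-seq 3 had no Dnmt3l UMI. Depth differed, with 1293296 to 8064678 UMIs per gastruloid in MULTI-seq 1 and 6752579 to 39522093 in MULTI-seq 3. The mean level on day 5 was 0.373 CPM in MULTI-seq 1, beside 0.216 in MULTI-seq 3.

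The maintenance genes Dnmt1 and Uhrf1 were both higher on day 3.5 than on day 3 in MULTI-seq 3, and Dnmt1 was highest on day 3.5. Dnmt1 was 124 ± 6.5 on day 3 (111, 125, 140), 183 ± 14 on day 3.5 (162, 187, 200) and 172 ± 12 on day 4 (158, 169, 200). It was 139 ± 10 on day 4.5 (119, 138, 155) and 135 ± 7.4 on day 5 (118, 136, 147). Every gastruloid of day 3.5 lay above every one of day 3, and these days come from different lane sets. Within the lane set of days 3.5 and 4, Dnmt1 fell by 0.12 ± 0.03 (adjusted p = 0.00197; 14 of 16 below the earlier median), and from day 4.5 to 5 the difference of -0.05 ± 0.04 did not pass (adjusted p = 0.333). Across lane sets, Dnmt1 rose by 0.40 ± 0.02 from day 3 to 3.5 (adjusted p = 2.56e-19) and fell by 0.11 ± 0.04 from day 4 to 4.5 (adjusted p = 0.0126). With library size alone the latter step was -0.30, and without a filter on low counts -0.18. MULTI-seq 2 had lower Dnmt1 than MULTI-seq 3 at the same days, with 109 ± 8.2 on day 4 and 110 ± 3.4 on day 4.5. The differences, MULTI-seq 3 minus 2, were 0.50 (adjusted p = 1.65e-11) and 0.38 (adjusted p = 6.02e-10) on the log2 scale, beside 0.40 for the step from day 3 to 3.5.

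Uhrf1 was 80.9 ± 3.9 on day 3 (73.1, 81.8, 86.2) and 115 ± 8.4 on day 3.5 (99.2, 115, 131), again with no overlap and across lane sets (rose by 0.34 ± 0.03, adjusted p = 8.08e-15). It was 112 ± 8.0 on day 4, 108 ± 11 on day 4.5 and 103 ± 7.3 on day 5. Neither step within a lane set passed (-0.06 ± 0.04, adjusted p = 0.132; -0.09 ± 0.05, adjusted p = 0.225). From day 4 to 4.5 it was 0.15 ± 0.05 higher across lane sets after TMM normalisation (adjusted p = 0.00626), and -0.05 with library size alone, so this step has no fixed direction. Without a filter on low counts it was 0.07 (adjusted p = 0.235). On day 5 MULTI-seq 1 gave 148 ± 8.3 (131, 148, 162), above every day 5 gastruloid of MULTI-seq 3 (87.0, 103, 112), and the log2 difference, MULTI-seq 3 minus 1, was -0.30 after TMM normalisation and -0.53 with library size alone, the scale of these levels. The summed level of the S phase list was also higher in MULTI-seq 1, at 2179 ± 134 beside 1580 ± 110 CPM. Its part in the Uhrf1 difference was not tested.

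Tet2 was the member that rose within both lane sets of MULTI-seq 3 that hold a pair of days. Its level was 7.97 ± 1.24 on day 3.5 (6.49, 7.76, 11.03) and 10.4 ± 1.1 on day 4 (8.27, 10.4, 12.9). It rose by 0.37 ± 0.06 (adjusted p = 5.73e-06), and all 16 gastruloids of day 4 lay above the day 3.5 median. From day 4.5 (5.10 ± 1.24; 3.34, 4.92, 7.55) to day 5 (6.69 ± 0.97; 5.04, 6.77, 8.31) it rose by 0.37 ± 0.09 (adjusted p = 0.00678), with 16 of 16 above the earlier median. Between these rises, across lane sets, it fell by 0.81 ± 0.08 (adjusted p = 3.59e-10), and the ranges of days 4 and 4.5 did not overlap. In MULTI-seq 2, with both days in pool B, the level was 6.32 ± 1.11 on day 4 and 7.17 ± 1.79 on day 4.5. The step differed between the experiments by -0.97 ± 0.15 (adjusted p = 3.76e-07). From day 3 (4.52 ± 0.90; 2.92, 4.36, 7.11) to 3.5, again across lane sets, Tet2 rose by 0.64 ± 0.08 (adjusted p = 8.13e-10).

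Tet1, the family member most associated with pluripotent cells, passed in no comparison of days within a lane set (edgeR: 0.06 ± 0.06, adjusted p = 0.356; 0.05, adjusted p = 0.516; -0.15 in MULTI-seq 2, adjusted p = 0.144). It was 57.8 ± 7.7 on day 3 (46.1, 57.1, 74.1), 59.8 ± 9.9 on day 3.5 (44.3, 61.6, 81.2) and 63.3 ± 5.4 on day 4 (53.1, 62.2, 75.2). It was 35.0 ± 2.9 on day 4.5 (29.6, 34.4, 40.1) and 36.5 ± 3.4 on day 5 (29.1, 37.2, 41.6). The fall of 0.66 ± 0.04 from day 4 to 4.5 (adjusted p = 1.21e-15, no overlap) lies between lane sets, and in MULTI-seq 2 the levels were 39.6 ± 4.0 and 36.1 ± 3.4. The step differed between experiments by -0.52 ± 0.07 (adjusted p = 1.46e-08), and on day 4 Tet1 was 0.52 higher on the log2 scale in MULTI-seq 3 than in MULTI-seq 2.

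Tet3 had a wide spread between gastruloids on days 3.5 and 4. It was 19.4 ± 2.9 on day 3 (13.8, 19.3, 25.0), 31.4 ± 10.2 on day 3.5 (14.8, 33.1, 44.8) and 35.7 ± 13.3 on day 4 (16.1, 39.9, 62.7). It was 35.9 ± 4.7 on day 4.5 (27.9, 36.5, 44.1) and 37.5 ± 2.8 on day 5 (32.5, 37.6, 44.7). The SD of 10.2 on day 3.5 and 13.3 on day 4 stood beside 7.41 and 8.96 computed from each gastruloid's mix of cell types and 1.92 and 1.14 from counting alone. Tet3 rose across lane sets from day 3 to 3.5 (by 0.52 ± 0.11, adjusted p = 3.74e-05), and neither step within a lane set of MULTI-seq 3 passed (0.17 ± 0.18, adjusted p = 0.409; 0.05, adjusted p = 0.529). In MULTI-seq 2, Tet3 rose by 0.42 ± 0.12 from day 4 (23.2 ± 7.2; 13.4, 22.4, 36.9) to day 4.5 (31.9 ± 2.9; 28.2, 32.0, 36.6), with an adjusted p of 0.0345 and all 12 gastruloids above the earlier median. This call was lost without lane 3 of pool B (adjusted p = 0.174), and also with a minimum of 100 cells per gastruloid (adjusted p = 0.109).

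In a whole gastruloid, a different mix of cell types and a different amount of RNA per cell cannot be told apart, so each change was split into a part from the mix and a part from levels within types. For Dnmt3b at days 3.5 to 4, the mix gave -18.4 CPM and the levels within types -12.5. At days 4.5 to 5 the mix gave 1.55 and the levels -12.6, and in MULTI-seq 2 the parts were -17.7 and -14.3. The Dnmt1 fall at days 3.5 to 4 had -10.52 from the mix and -0.914 from levels within types. The Tet2 rise had a larger part within types at both steps (1.68 beside 0.856, and 1.39 beside 0.367). The Tet3 rise of MULTI-seq 2 had 7.92 from the mix and 0.527 from levels within types. For Tet1 at days 3.5 to 4 the parts had opposite signs, -5.34 from the mix and 8.88 from within types.

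Within named cell types, tests were possible for 13 pairs of a type and a step, with gastruloids that held at least 10 cells of the type. The names were given from the same cells' expression, so these tests hold for cells so named. Dnmt3b fell in 10 of the 13, rose in 1 and passed in neither direction in 2. Each other member tested in all 13 passed in at most 3. At days 4.5 to 5 it fell in 7 of 8 types. Of the 10 falls, 7 passed in every alternative run, which here were DESeq2, at least 20 cells of the type and no filter on low counts. For Late Spinal Cord the run with at least 20 cells held the same 8 and 7 gastruloids as the main one. Library size scaling and leaving out lanes were not run within types. Somites did not pass with at least 20 cells of the type (adjusted p = 0.489), NMPs without a filter on low counts (adjusted p = 0.0571), or Late Posterior PSM of MULTI-seq 2 with DESeq2 (adjusted p = 0.0567).

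In neural types at days 4.5 to 5, Dnmt3b went from 46.2 ± 8.0 (34.4, 46.1, 63.6, n = 15) to 31.2 ± 3.9 (24.9, 30.7, 38.4, n = 16) in Early Spinal Cord. It fell there by 0.58 ± 0.07 (adjusted p = 2.32e-08, where 12.4% of genes passed). In Late Spinal Cord it went from 39.9 ± 4.7 (32.6, 42.1, 45.5, n = 7) to 27.5 ± 2.1 (24.7, 27.5, 29.8, n = 8) and fell by 0.49 ± 0.07 (adjusted p = 6.47e-05, 7.79% of genes). The Early Spinal Cord ranges overlapped slightly and the Late Spinal Cord ranges did not. In neuromesodermal progenitors (NMPs), which give both spinal cord and somites, it fell by 0.34 ± 0.10 (adjusted p = 0.0286, 7.55% of genes).

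Dnmt3b also fell in mesodermal types at this step. In Mature Somites Dnmt3b went from 58.0 ± 9.9 (42.5, 55.8, 75.8, n = 13) to 41.2 ± 4.8 (33.8, 40.7, 52.0, n = 16) and fell by 0.53 ± 0.06 (adjusted p = 1.67e-07, 14% of genes). In Late Anterior PSM it went from 39.1 ± 8.3 (30.02, 38.5, 56.3, n = 9) to 23.5 ± 7.2 (11.4, 22.8, 42.5, n = 15) and fell by 0.73 ± 0.14 (adjusted p = 0.000698, 2.86% of genes). Late Posterior PSM and Somites fell by 0.64 ± 0.09 (adjusted p = 3.08e-06, 6.88% of genes) and 0.59 ± 0.16 (adjusted p = 0.0212, 3.6% of genes). Mature Endoderm was the type that did not pass (-0.21 ± 0.16, adjusted p = 0.640, 1.63% of genes). Its earlier levels were 215 ± 82 on day 4 (n = 14) and 66.7 ± 16.3 on day 4.5 (n = 7), followed by 56.2 ± 15.0 on day 5 (n = 9).

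At days 3.5 to 4, Dnmt3b fell by 0.50 ± 0.10 in Caudal Epiblast (adjusted p = 0.000208, 21.2% of genes), from 111 ± 24 (63.8, 111, 149) to 74.9 ± 16.8 (47.1, 77.5, 98.7). In Early Posterior PSM it fell by 0.23 ± 0.05 (adjusted p = 0.000549, 38.3% of genes), and in Early Spinal Cord the difference of -0.22 ± 0.12 did not pass (adjusted p = 0.350, 2.8% of genes). Late Posterior PSM was the one type testable in MULTI-seq 2, and Dnmt3b fell there by 0.56 ± 0.14 (adjusted p = 0.0343, 1.13% of genes).

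**Figure D2:**
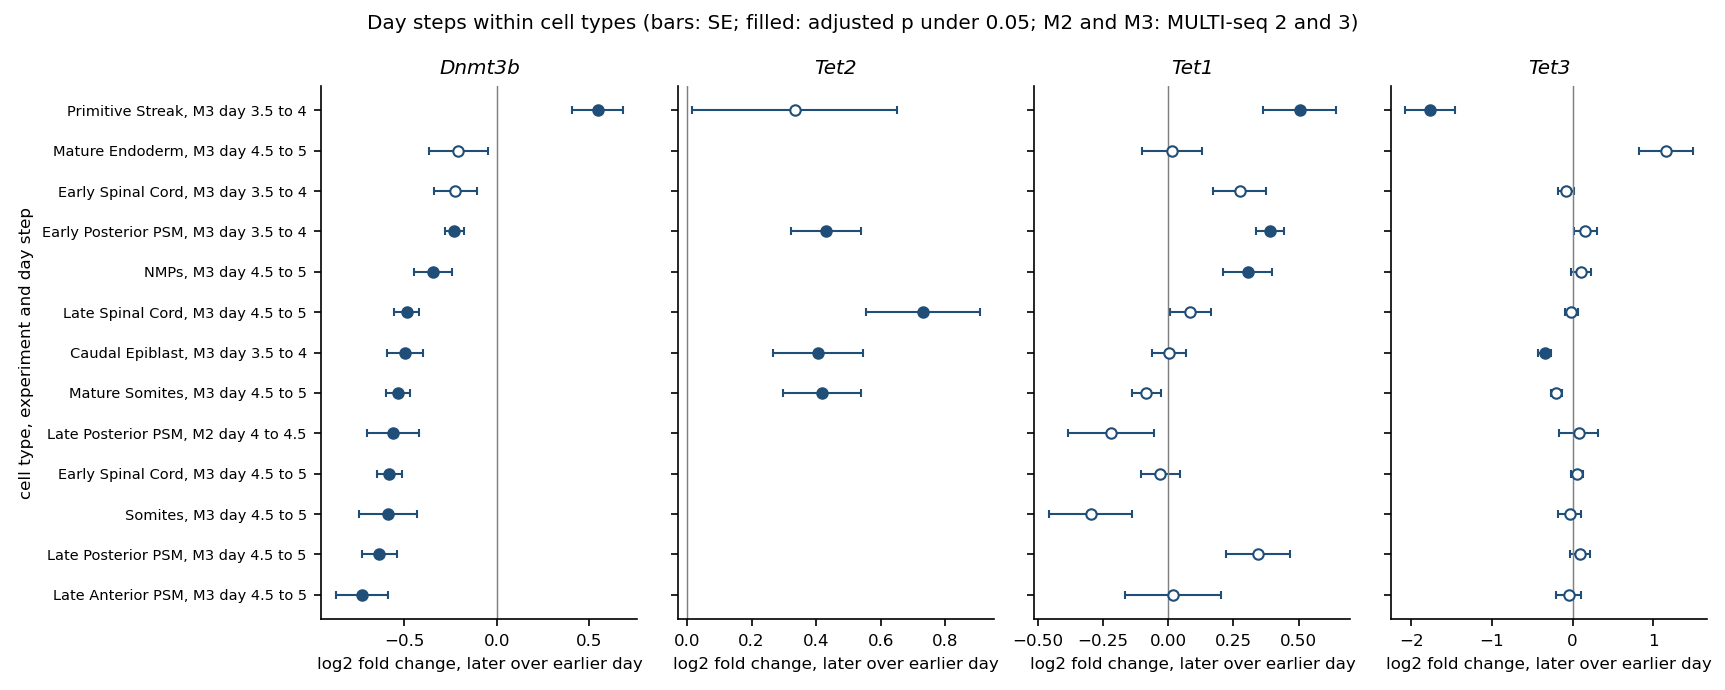
Log2 fold change ± SE (TMM scale; later minus earlier day) of Dnmt3b, Tet2, Tet1 and Tet3 in each of 13 pairs of a cell type and a day step, with filled points for an adjusted p under 0.05. Dnmt3b lies below 0 in 12 of 13 pairs, with Primitive Streak at 0.55 as the exception, and Tet2 lies above 0 in all 5 pairs in which it could be tested.

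The exception was Primitive Streak, where Dnmt3b rose by 0.55 ± 0.14 (adjusted p = 0.0127, 5.58% of genes) and Tet3 fell by 1.76 ± 0.31 (adjusted p = 0.000282). On day 4 there were 124 such cells in all, and 5 gastruloids held at least 10 each, 68 together. The Dnmt3b levels of these 5 were 58.9, 174, 194, 198 and 222 beside 90.9 to 186 (median 121, n = 16) on day 3.5, so 3 of 5 exceeded every earlier one. Tet3 was 4.76 to 16.2 on day 4 and 18.5 to 45.1 on day 3.5, with no overlap. Without the gastruloid barcoded Bar10 the Dnmt3b call was lost (adjusted p = 0.103), as it was without Bar6 (adjusted p = 0.060), and the number of members that passed went from 3 to 1. Over all genes 306 of 8449 passed without Bar10 and 322 of 8444 without Bar6, beside 461 of 8262 with all 5. The 5 gastruloids also held 6.93 to 139 CPM of summed germ cell markers (7.96 to 30.5 on day 3.5) and 38.1 to 1053 of endoderm markers (15.7 to 185). Their summed primitive streak markers were 303 to 583 CPM (536 to 1019 on day 3.5), and their summed pluripotency genes 367 to 2033 (479 to 786). The germ cell gene Dppa3 was at 0 in 3 of them and at 34.4 and 64.8 in the others. Dnmt3l was at 0 in 3 and at 10.9 and 13.5 in the others. Their part in the change was not tested.

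Tet2 passed in 4 of the 5 pairs in which its counts allowed a test, each time upward. Its direction in the pairs left out by the count filter is not given here. It rose by 0.73 ± 0.18 in Late Spinal Cord at days 4.5 to 5 (adjusted p = 0.0109, 7.79% of genes), from 3.02 ± 0.88 (1.90 to 4.34) to 5.14 ± 0.95 (3.82 to 6.24). It rose by 0.42 ± 0.12 in Mature Somites at the same step (adjusted p = 0.0149, 14% of genes). At days 3.5 to 4 it rose by 0.41 ± 0.14 in Caudal Epiblast (adjusted p = 0.0303, 21.2% of genes) and by 0.43 ± 0.11 in Early Posterior PSM (adjusted p = 0.00163, 38.3% of genes). The Caudal Epiblast call was lost with at least 20 cells of the type (adjusted p = 0.0738) and without a filter on low counts (adjusted p = 0.0822). In each of the 4 the ranges of the days overlapped.

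Tet1 was higher at the later day in the 3 pairs where it passed, against the direction of Dnmt3b in 2 of them. In Early Posterior PSM it went from 46.3 ± 6.9 (34.5, 44.2, 60.3, n = 13) to 61.5 ± 5.3 (50.6, 63.5, 69.3, n = 16) and rose by 0.39 ± 0.05 (adjusted p = 3.06e-07). In NMPs it rose by 0.30 ± 0.09 (adjusted p = 0.0336) and in Primitive Streak by 0.50 ± 0.14 (adjusted p = 0.0264). The NMP call was lost without a filter on low counts (adjusted p = 0.0508), and the Primitive Streak call without Bar10 (0.29, adjusted p = 0.343) and without Bar6 (adjusted p = 0.0753). In Caudal Epiblast, over the step in which it rose in Early Posterior PSM, it was 61.8 ± 7.1 and 60.2 ± 10.4. The difference between the steps of Caudal Epiblast and Early Posterior PSM was itself tested and was -0.34 ± 0.09 (adjusted p = 0.0083, where 11.7% of genes passed), the single member to pass in that test.

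Dnmt3a passed in 2 pairs, both at days 4.5 to 5 and both upward. It went from 17.6 ± 4.6 (11.1, 17.8, 27.2) to 23.8 ± 3.6 (17.1, 24.0, 32.3) in Early Spinal Cord (rose by 0.42 ± 0.09, adjusted p = 0.00144) and from 27.7 ± 6.9 to 37.3 ± 6.0 in NMPs (rose by 0.40 ± 0.10, adjusted p = 0.00849). In these types Dnmt3b fell over the same step. Dnmt1 fell in Late Posterior PSM (by 0.20 ± 0.06, adjusted p = 0.0357) and Somites (by 0.36 ± 0.10, adjusted p = 0.0369), and with at least 20 cells of the type neither passed (adjusted p = 0.0719 and 0.310). DESeq2 did not call the Somites fall either (adjusted p = 0.0574). Uhrf1 fell in Early Posterior PSM (by 0.19 ± 0.05, adjusted p = 0.00222) and Late Posterior PSM (by 0.23 ± 0.07, adjusted p = 0.0487). The latter did not pass in any of 3 alternatives, with adjusted p from 0.0538 to 0.122. Besides Primitive Streak, Tet3 fell in Caudal Epiblast, from 36.4 ± 6.2 to 29.3 ± 4.7 (by 0.34 ± 0.08, adjusted p = 0.00191), although its level in whole gastruloids did not pass in that step.

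Levels across cell types are given as a description, since clusters were made from the same expression. In MULTI-seq 3, 22 types had at least 3 gastruloids with enough cells. Of the 7 members with enough counts Dnmt3b had the widest range, from 227 ± 33 in Early Neurectoderm to 36.0 ± 15.8 in Endothelium (6.3 times). Below Early Neurectoderm came Primitive Streak (166 ± 42), Mature Endoderm (155 ± 117), Caudal Neurectoderm (142 ± 30) and Anterior Primitive Streak (130 ± 28). The lowest besides Endothelium were Notochord (36.7 ± 19.8), Late Anterior PSM (41.2 ± 22.0) and Late Spinal Cord (42.1 ± 17.6). Early Neurectoderm and Primitive Streak were the only neighbours in this order that differed by more than the larger of their SDs.

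These means span days, and types differ in when they occur. On day 4 alone Dnmt3b ranged from 215 ± 82 in Mature Endoderm and 169 ± 64 in Primitive Streak to 56.4 ± 10.3 in NMPs and 45.5 ± 18.3 in Notochord. The somite and PSM types of that day lay together, between 69.6 and 85.4. On day 5 Mature Endoderm (56.2 ± 15.0) and Head Mesoderm (52.1 ± 8.9) were still above Late Anterior PSM (23.5 ± 7.2) and Notochord (23.4 ± 7.8).

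Dnmt3a was ordered otherwise. It was highest in Early Anterior PSM (66.8 ± 11.4), Mature Somites (56.1 ± 13.9) and Somites (54.6 ± 13.2). It was lowest in Anterior Primitive Streak (15.0 ± 3.6), Mature Endoderm (17.7 ± 6.7), Late Spinal Cord (18.7 ± 3.2), Late Neurectoderm (21.8 ± 4.7) and Early Spinal Cord (22.6 ± 5.9). The range was 4.46-fold, with Early Neurectoderm (38.8 ± 6.4) and Late Posterior PSM (38.1 ± 9.4) near each other in its middle.

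Tet3 had a 5.18-fold range. It was highest in Head Mesoderm (68.3 ± 14.6) and Mature Somites (58.5 ± 13.7) and lowest in Early Nascent Mesoderm (13.2 ± 6.0), Early Posterior PSM (14.5 ± 6.2) and Mature Endoderm (14.9 ± 10.48). Along the paraxial lineage its level was 14.5 in Early Posterior PSM, 30.4 in Early Anterior PSM, 44.3 in Somites and 58.5 in Mature Somites. Tet2 was highest in Endothelium (16.1 ± 5.2), then Cardiopharyngeal Mesoderm (12.5 ± 1.8), and lowest in Anterior Primitive Streak (3.66 ± 1.27), Mature Endoderm (3.93 ± 2.00) and Early Spinal Cord (3.94 ± 2.53). Tet1 ran from Early Neurectoderm (74.1 ± 13.3), Cardiopharyngeal Mesoderm (70.6 ± 12.4) and Caudal Neurectoderm (70.5 ± 14.1) to Endothelium (29.5 ± 7.0). The Early Neurectoderm mean came from days 3 to 4 and the Endothelium mean from day 5, so type and day cannot be told apart between them.

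Dnmt1 had the narrowest range, 2.03 times, from Caudal Neurectoderm (189 ± 34) to Anterior Primitive Streak (93.2 ± 14.8). Anterior Primitive Streak, also the low end for Dnmt3a and Tet2, came from 4 gastruloids of day 3 with 57 such cells. At that end type, day and lane set cannot be told apart in these means. Uhrf1 ran from Somites (139 ± 24) and Late Spinal Cord (128 ± 26) to Mature Endoderm (71.0 ± 15.0) and Notochord (58.9 ± 14.4). For each of the other 6 members in this description, which leaves out Dnmt3l for its low counts, all 21 pairs of neighbours in its order lay within the larger SD, so the ends of an order are apart and single places in it are not. Mature Endoderm joined high Dnmt3b to low Dnmt3a, Tet2, Tet3, Dnmt1 and Uhrf1.

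**Figure D3:**
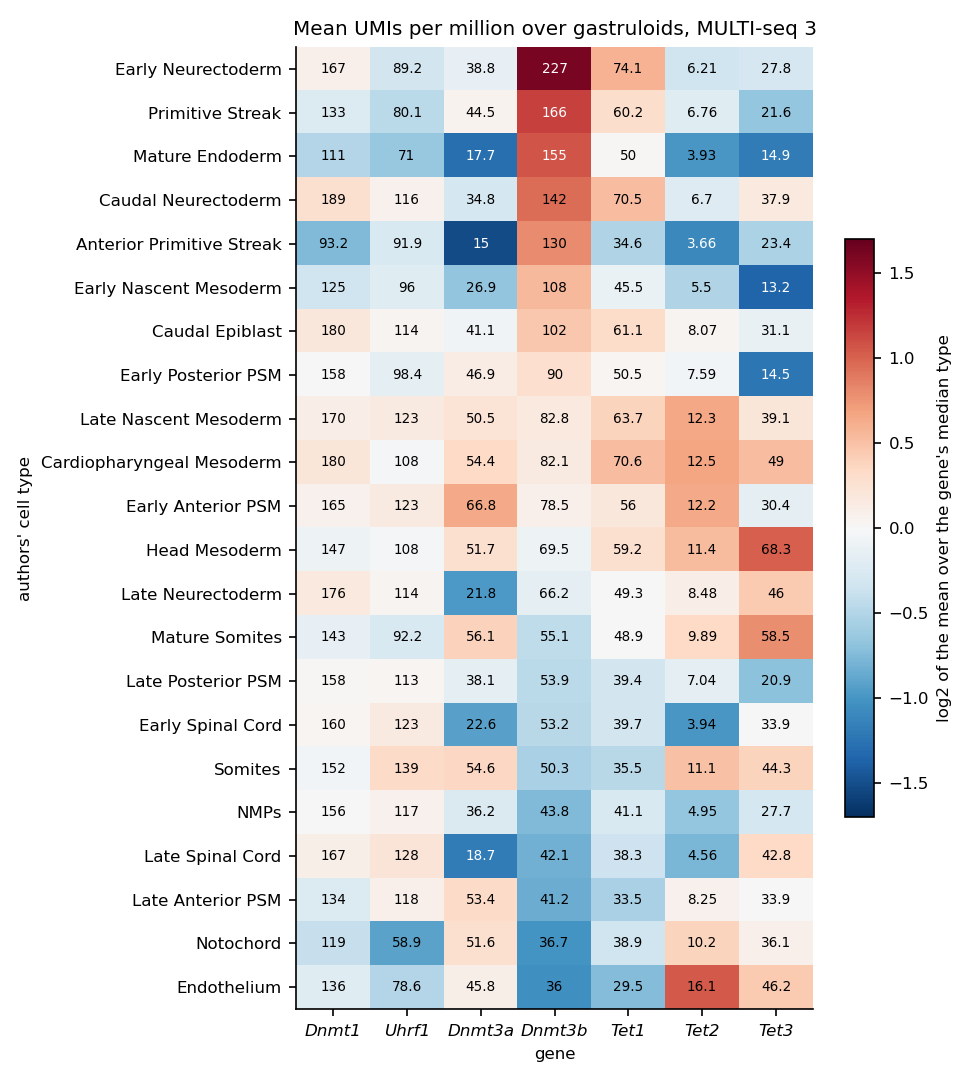
Mean level (numbers; CPM over gastruloids of all days in MULTI-seq 3) of 7 members in 22 cell types, ordered by Dnmt3b, with colour for the log2 ratio to that gene's median type. Early Neurectoderm tops Dnmt3b at 227 and Tet1 at 74.1, while Early Anterior PSM tops Dnmt3a at 66.8 and Head Mesoderm tops Tet3 at 68.3.

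The cells named PGCs held the most extreme levels of 4 members. MULTI-seq 3 had 252 such cells, of which 94 carried a gastruloid barcode, spread over 43 of 88 gastruloids with at most 6 in one. They are therefore given pooled, with exact 95% Poisson intervals that cover counting error only and with no test. Dnmt3l was at 43.5 CPM (39.5 to 47.7), beside 1.23 (0.731 to 1.95) in the next type, Epiblast, and 0.167 in all other cells, a ratio of 260. These cells were 0.479% of all and held 449 of the 753 Dnmt3l UMIs, or 59.6%. Dnmt3b was at 313 (303 to 324), above Early Neurectoderm at 237, and Tet1 at 144 (137 to 152), above Cardiopharyngeal Mesoderm at 78.3. Tet3 was the lowest of 25 types, at 4.35 (3.18 to 5.83), beside 12.7 in Early Nascent Mesoderm and 32.3 in all other cells, which is 7.42 times lower than the rest. Dnmt1 (118, rank 21), Uhrf1 (95.1, rank 17), Dnmt3a (50.4, rank 10) and Tet2 (7.74, rank 15) were within the range of other types.

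**Figure D4:**
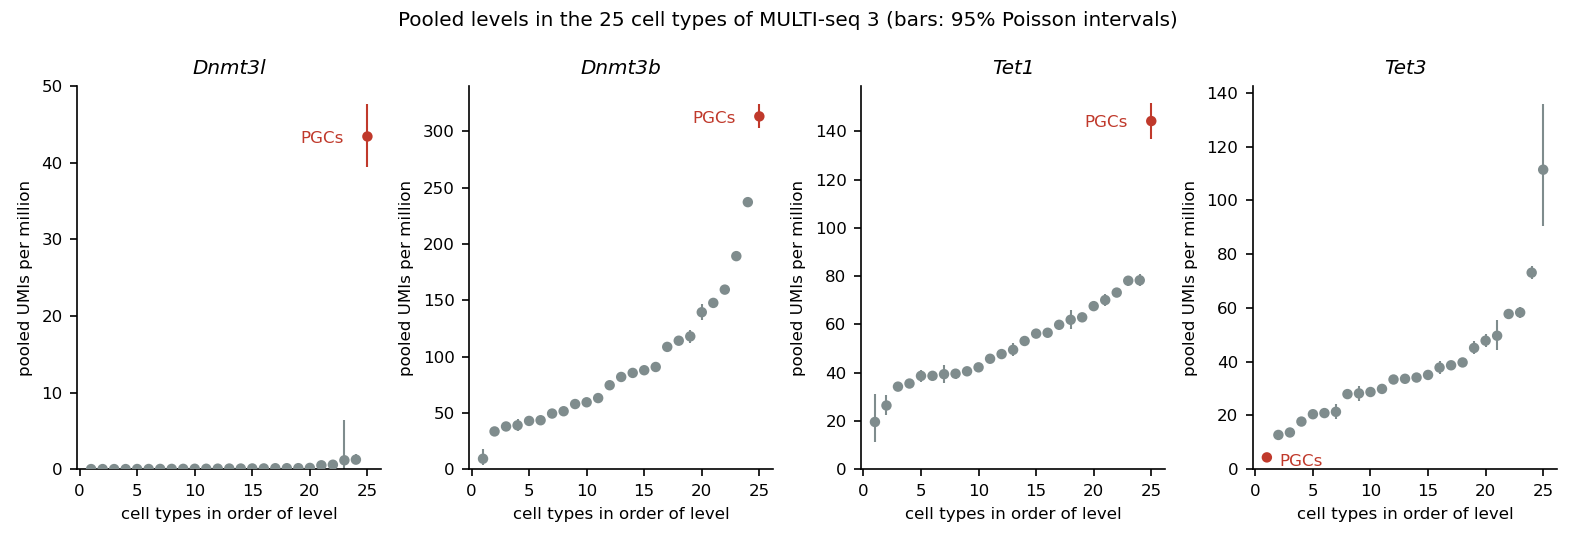
Pooled level (CPM, with 95% Poisson intervals) of Dnmt3l, Dnmt3b, Tet1 and Tet3 in 25 cell types of MULTI-seq 3, with PGCs in red. PGCs lie at the top for Dnmt3l (43.5), Dnmt3b (313) and Tet1 (144) and at the bottom for Tet3 (4.35).

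The name was checked against its markers. The summed germ cell list was 157 CPM in PGCs and 49.8 in the next type. Dppa3 stood at 98.8, Tfap2c at 25.2, Dnd1 at 14.8, Prdm1 at 12.4 and Nanos3 at 5.81. Of the pluripotency genes, Dppa5a was at 3132, beside 89.3 in Primitive Streak. Utf1 was at 357 beside 22.5 there, Zfp42 at 173 beside 4.48, Otx2 at 79.9 beside 9.18 and Nanog at 71.9 beside 24.3. Dppa4, Esrrb, Tfcp2l1 and Klf4 were also higher in PGCs. Pou5f1 was at 715, beside 716 in Primitive Streak, and Fgf5 was lower, at 25.3 beside 75.9. Whether the germ cell or the pluripotency list describes these cells better was not tested. The endoderm list was at 763, beside 2860 in Mature Endoderm. Dnmt3l and Dppa3 UMIs occurred together in 54 of the 252 cells, Dnmt3l alone in 51, Dppa3 alone in 36 and neither in 111. Of the overlapping genes on the other strand, Aire was at 8.23 in PGCs, and 85 of its 107 UMIs came from them. By barcode call, Dnmt3l was at 33.2 in the 94 cells of a single gastruloid, 43.1 in the 18 called doublets and 51.2 in the 140 with no call. Without the doublet calls Dnmt3l was at 43.5, Dnmt3b at 296, Tet1 at 146 and Tet3 at 4.06.

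At least 1 Dnmt3l UMI was seen in 41.7% of PGCs (exact binomial interval 35.5% to 48.0%; median depth 35812 UMIs per cell). In Late Spinal Cord, at a median of 31857 UMIs, it was 0.0315%, and in NMPs it was 0 of 1930 cells. The share was 5.06% in Epiblast, 1.12% in Primitive Streak and 0.933% in Mature Endoderm. With each cell thinned to 4000 UMIs it was 12.1% in PGCs and 0.00353% in Late Spinal Cord. Tet3 was seen in 13.9% of PGCs (1.79% after thinning), and in the other types from 30.3% in Early Nascent Mesoderm to 84.3% in Head Mesoderm.

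The level of Dnmt3l in PGCs differed between lane sets. It was 8.62 and 9.92 in the lanes of day 3, 49.7 to 82.5 in the lanes of days 3.5 and 4, and 59.5 to 108 in those of days 4.5 and 5. Dppa3 ran the same way (31.6 and 36.5; 69.5 to 185; 171 to 248), and Dnmt3b did not (280 and 362; 269 to 474; 151 to 237). Tet1 was 104 and 92.8, then 189 to 198, then 146 to 161. Tet3 was low in every lane, between 0 and 6.26. The other experiments held few such cells: 15 without MULTI-seq (Dnmt3l 73.4, Dnmt3b 257, Tet1 82.6), 6 in MULTI-seq 1 (106, 456, 106) and 6 in MULTI-seq 2 (28.6, 510, 100.2). Tet3 was at 0 of 217846 UMIs in the first of these, where 3 UMIs would make 13.8 CPM. It was at 40.8 (13.2 to 95.1) from 5 UMIs in MULTI-seq 1.

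Which members varied together was asked first over 68 units of a type and a day in MULTI-seq 3. These units share lanes, gastruloids and depth, so Pearson's r on log levels is a description. Dnmt3b and Tet1 had an r of 0.83, Dnmt1 and Uhrf1 0.73, Tet2 and Tet3 0.59, and Dnmt3a and Tet2 0.57. The summed S phase genes had an r of 0.78 with Dnmt1 and 0.77 with Uhrf1, and between -0.19 and 0.47 with the other members. Among 5536 genes above a mean of 20 CPM, those most like Uhrf1 were the replication genes Clspn (0.88) and Rrm2 (0.87) and the kinetochore gene Nuf2 (0.85). Most like Dnmt1 were Kpnb1 (0.92), Atad5 (0.92) and Casp8ap2 (0.90). Dnmt3b was nearest to Rbbp7 (0.89), Terf1 (0.84) and Tet1 (0.83), and Tet1 to Utp14b (0.85) and Dnmt3b (0.83). The nearest to Tet2 were Rbm5 (0.85), Xiap and Taok1 (both 0.82), and to Tet3 Syne2, Alg10b (both 0.82) and Satb1 (0.81). Dnmt3a was nearest to Arhgap42 (0.71), Nub1 and Tbc1d15 (both 0.69). No genes are named for Dnmt3l, whose mean over these units was 0.272 CPM.

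Among gastruloids of one day, 30 pairs of measures were tested in 8 groups of 11 to 24 gastruloids, 240 relations in all. Of these, 23 passed an adjusted p of 0.05 by Pearson's r (permutation tests, Benjamini-Hochberg), 21 of them positive, and 17 passed by Spearman's rho as well. Dnmt1 followed the summed S phase genes on day 3.5 (r = 0.96, rho = 0.93), day 4 (0.96, 0.91) and day 4.5 (0.72, 0.71) of MULTI-seq 3 and on day 5 of MULTI-seq 1 (0.71, 0.75). Without the 2 gastruloids farthest from the median Dnmt1 level, the day 4.5 value was 0.57. Uhrf1 followed them on day 4 (r = 0.83), day 4.5 (0.93) and day 5 (0.84) of MULTI-seq 3 and on day 5 of MULTI-seq 1 (0.70). In the other 4 groups r did not pass for Dnmt1 (0.39 on day 3, 0.61 on day 5 of MULTI-seq 3 where rho was 0.77 and passed, and 0.26 and -0.03 in MULTI-seq 2). Nor did it for Uhrf1 (0.36 on day 3, 0.19 on day 3.5, and -0.36 and 0.35 in MULTI-seq 2). Dnmt1 and Uhrf1 themselves passed in 2 of the 8 groups, day 4 (r = 0.88, rho = 0.91) and day 5 (0.72, 0.79) of MULTI-seq 3. The summed S phase level itself differed by cell type, from 2141 CPM in Caudal Neurectoderm to 1118 in Endothelium. In MULTI-seq 3 the Dnmt1 SD was 13.9 on day 3.5 and 11.6 on day 4. From each gastruloid's mix of cell types alone it was 11.9 and 9.52. For Uhrf1 on day 4.5 these were 11.2 and 10.4. The part of the mix in these relations was not tested.

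**Figure D5:**
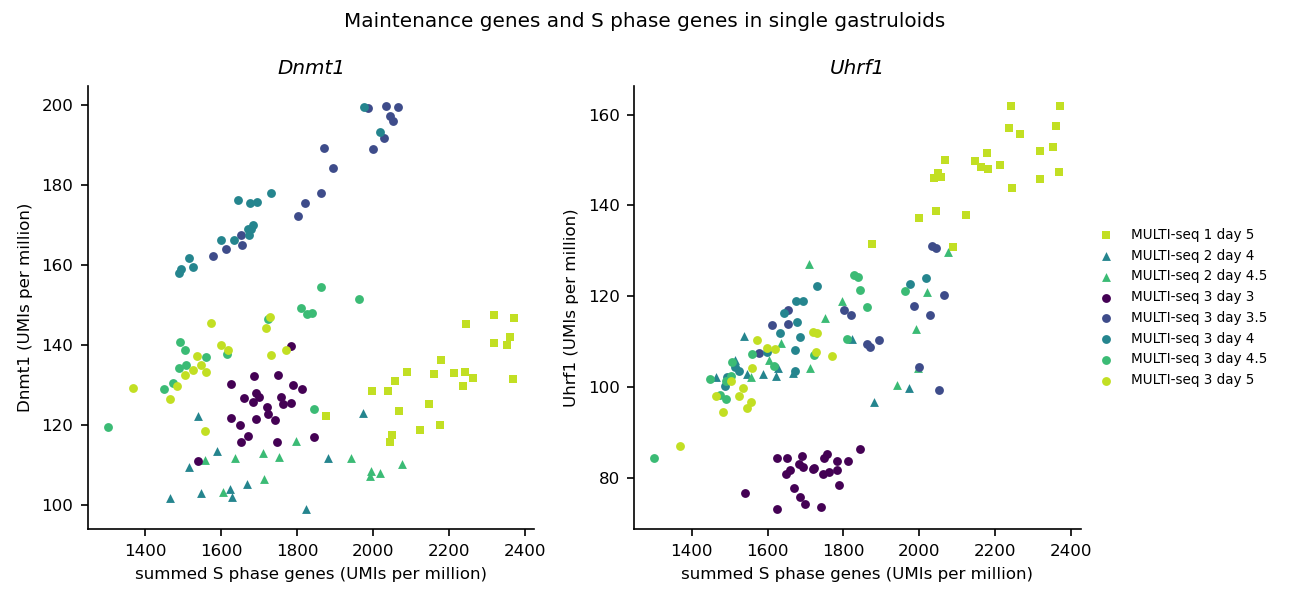
Level of Dnmt1 and Uhrf1 (CPM) in single gastruloids of the 8 groups against the summed level of the S phase genes (CPM). Colour gives the day and marker shape the experiment. Dnmt1 rises with the S phase genes among the day 3.5 and among the day 4 gastruloids of MULTI-seq 3 (r = 0.96 in each), and the Uhrf1 points of MULTI-seq 1 lie between 131 and 162.

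Dnmt3b and Tet1 varied together among gastruloids on day 3 (r = 0.66, rho = 0.64, permutation p adjusted to 0.0096) and day 3.5 (0.88, 0.91, 0.000343), and without the 2 farthest gastruloids r was 0.61 and 0.84. Dnmt1 and Tet3 did so on day 3.5 (0.91, 0.89). Dnmt3a and Tet2 passed on day 4.5 of MULTI-seq 2 (0.79, 0.80). One relation was negative by both measures, that of Dnmt3a and Uhrf1 on day 4.5 of MULTI-seq 3 (r = -0.77, rho = -0.84, permutation p adjusted to 0.00849 and 0.0032).

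The other genes of the pathway are given by lists, as counts beside the share of all genes that passed. At days 3.5 to 4 of MULTI-seq 3, against 60.4% of all genes, 6 of 8 readers of methylated DNA passed, all upward, with a list median of 0.20 beside 0.01 over all genes. Among them were Mbd1 (0.20), Zbtb38 (0.22) and Zbtb4 (1.29). Of the 8 genes of repair and active removal, 2 rose, Gadd45b by 1.33 and Gadd45g by 1.47, and 3 fell, the glycosylases Neil1 by 0.49 and Ung by 0.46 and the stress gene Gadd45a by 0.32. Of the 17 regulators 15 could be tested: 7 rose and 5 fell. Those that fell include Uhrf2 (by 0.28), the Uhrf1 relative, Hells (by 0.35), a remodeller needed for methylation, and Cxxc5 (by 0.54), a partner of Tet proteins, and Cxxc4 rose by 1.34. Of 6 genes of methyl donor supply 4 fell, among them Mthfd1 by 0.64 and Ahcy, which clears the product that inhibits methyltransferases, by 0.31.

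Of 13 S phase genes 10 fell in that step and none rose, alongside the fall of Dnmt1. Of the pluripotency genes 10 could be tested: 5 fell and 2 rose. Pou5f1 fell by 2.62, Nanog by 1.32, Tfcp2l1 by 1.29, Dppa4 by 1.06 and Utf1 by 1.04, and Otx2 rose by 2.94 and Klf4 by 0.56. Of 13 germline genes known to be held silent by promoter methylation only 1, Sycp3, had enough counts to be tested, and it fell by 0.96.

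At days 4.5 to 5, against 13.5% of genes, 2 of 8 readers rose (Mbd1 by 0.24 and Mbd2 by 0.14). Neil1 rose by 0.40 and Gadd45b by 0.90, and the glycosylase Tdg, which excises the products of Tet oxidation, fell by 0.10. Of the regulators Uhrf2 rose by 0.16, Ehmt2 by 0.19 and Zfp57, which guards imprints, by 0.53, and Trim28 fell by 0.08. Of the donor genes Mat2a and Ahcy each fell by 0.33, so Ahcy fell at both steps. Of the S phase genes Tipin alone passed with edgeR (fell by 0.20), and 2 passed with DESeq2. Of 5 pluripotency genes 0 passed with edgeR or DESeq2, with 1 at an unadjusted p under 0.05. In MULTI-seq 2, against 7.36% of genes, 0 of 7 readers, 0 of 7 repair genes and 0 of 6 donor genes passed with edgeR or with DESeq2, and 1 of each list had an unadjusted p under 0.05. The regulator Setdb1, a histone methyltransferase, fell by 0.22 and Cxxc4 rose by 0.80. Of the S phase genes Mcm6 rose by 0.22, and Pou5f1 fell by 1.92.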

How the data were processed

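UMI counts per gene and cell were deposited by the authors. Per the submitters' processing notes they used Cell Ranger 6.0.0, Seurat and mm10, and cell types, days and gastruloid calls come from their deposited cell table. Cells with a doublet or negative barcode call were left out, except in pooled values of PGCs and of cell types. Counts were summed per gastruloid (at least 30 cells) or per gastruloid and type (at least 10 cells, at least 5 gastruloids a day) and tested with edgeR 4.0.16 (R 4.3.3): quasi-likelihood, filterByExpr, TMM, Benjamini-Hochberg over all genes tested, threshold 0.05. A self-test on simulated counts of 13262 genes for days 3.5 to 4 of MULTI-seq 3 recovered 83 of 100 genes changed 1.5-fold and 99 of 100 changed 2-fold, with 6 false calls. Permutation tests used 100000 resamples and scipy 1.17.1. Gastruloids held 1293296 to 57333371 UMIs, and precision is lower where there are fewer. Alternatives were DESeq2 1.42.0, library size scaling, no filter on low counts, stricter cell minimums and leaving out each lane. Not every alternative was run for every test, and library size scaling and leaving out lanes were not run within cell types. The genes named are the 8 members, examples from the lists that passed, cell type markers and the pluripotency list in PGCs. Also named are the 3 genes most like each member but Dnmt3l by correlation. A few others, such as Dnmt3c, were chosen after their values were seen. The lists are otherwise given as counts, and 2 genes are not reported here. Members and lists were chosen with earlier results of these data known.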

Additional observations from a re-analysis of the deposited data

Results flagged for a closer look

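In Primitive Streak cells of day 4 in MULTI-seq 3, a single gastruloid of 5 stood far from the others for Dnmt3b, and a different one did so for Tet3. The Dnmt3b level was 58.9 CPM in the first, with the nearest other at 174. The Tet3 level was 16.2 CPM in the second, Bar10, with the nearest at 6.93. Both gaps lie in the same 5 gastruloids. They were the 2 found among 10 sets of values (a member in a type and day, 4 to 10 gastruloids each), and chance gives about 1 in 20. Each of these gastruloids held few such cells, 68 in all 5.

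The step from day 4 to 4.5 differed between MULTI-seq 3, where it joins 2 sets of lanes, and MULTI-seq 2, where both days share the lanes of pool B. The difference in log2 fold change was -0.41 for Dnmt3a, -0.52 for Tet1 and -0.97 for Tet2 (edgeR's interaction term). With at least 100 cells per gastruloid the Dnmt3a difference did not pass (adjusted p = 0.101), while those of Tet1 and Tet2 did in both alternatives run. In that test lane set and day cannot be told apart.

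The step of Tet1 from day 3.5 to 4 differed between 2 cell types, by -0.34 for Caudal Epiblast minus Early Posterior PSM. Both types come from the same lanes.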

How the results depend on the processing

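Of 619 values recomputed under an alternative, 561 kept direction and side of the threshold. With the direction kept, 25 no longer passed and 12 newly passed, and 21 changed sign. Of those 21, 2 belonged to results that had passed, Uhrf1 at day 4 to 4.5 and Tet3 at day 5, and they no longer passed either. Of 61 results that passed, 43 did so in every alternative run, and the cause of the other shifts was not tested. The number of members that passed went from 2 to 1 in MULTI-seq 2 with at least 100 cells and without lane 3, which also took the count over all genes from 814 to 340 (535 without lane 2). With library size alone it went from 4 to 7 at day 4 between experiments (where 6873 of 13713 genes passed), from 3 to 6 in the step between experiments (5346 of 12551) and from 1 to 2 between types (1496 of 11047). Leaving out single gastruloids of Primitive Streak, an alternative chosen after seeing the data, gave 1 to 3. Over all genes this gave from 306 of 8449 (without Bar10) to 585 of 8463 (without Bar20), beside 461 of 8262 in the main run.

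Sign changes with library size alone were Dnmt1 in MULTI-seq 2 (0.019), Tet1 at day 3 to 3.5 (0.046), Uhrf1 at day 4 to 4.5 (-0.050), Uhrf1 at day 4 (0.11), Dnmt3b at day 4.5 (-0.011), Dnmt3a, Dnmt3b and Tet3 at day 5 (-0.21, -0.12 and -0.0024), and Uhrf1 between experiments (-0.17) and between types (-0.027). Dnmt1 in MULTI-seq 2 was 0.0026 with DESeq2, 0.0071 without a filter and 0.011 with at least 100 cells. Uhrf1 at day 4 was 0.00036 without a filter and 0.010 without lane 3. Without single lanes, Dnmt3b at day 4.5 was -0.036 (lane 2), Tet1 at day 4.5 was 0.022 (lane 3), and Dnmt3a at day 5 was -0.029, -0.017 and -0.0040 (lanes 1 and 2 of MULTI-seq 1, lane C of MULTI-seq 3). Dnmt3b in Mature Endoderm was 0.020 with at least 20 cells. No paired analysis was possible because the days compared share no gastruloid and lane labels mark technical splits of a lane set. The test between types had the gastruloid as a block. Tests of 2 other pairs of types were not run because too few gastruloids held both types. Depth limits Dnmt3l, which had too few counts for a test, and Tet2, tested in 5 of 13 pairs of a type and a step.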

Other observations

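The 43 cells that the authors named Neurons were the lowest of the 25 types of MULTI-seq 3 for 4 members and the highest for 2. These are pooled counts, with 95% Poisson intervals for counting error only and no test. The maintenance genes Dnmt1 and Uhrf1 were at 62.0 (46.6 to 80.9) and 13.8 CPM (7.12 to 24.1). Dnmt3b was at 9.19 (3.97 to 18.1) from 8 UMIs and Tet1 at 19.5 (11.4 to 31.3) from 17 UMIs. Tet3 was at 111 (90.4 to 136) and Tet2, from 20 UMIs, at 23.0 (14.0 to 35.5), the highest of any type. The Tet1 and Tet2 intervals cover the Endothelium means over gastruloids (29.5 and 16.1), so these places in the order are not firm. Dnmt3a, at 37.9, was within the range of other types. Dnmt3c, a rodent relative of Dnmt3b that acts in male germ cells, had between 0 and 9 UMIs in any experiment, so it was near absent at this depth.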
